A study of Mus musculus with 18 samples.

Results

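Nanog is a homeodomain transcription factor of the naive pluripotent state, and its mRNA was followed here site by site through the m6A-seq peak lists of mouse embryoid bodies, fibroblasts and embryonic stem cells (ESCs). Peaks were taken as members when at least 1 bp overlapped an exon that GENCODE annotates for Nanog in mm10, or when a final list gave Nanog as the gene symbol. This rule used positions and names and no measured level. It found 16 of the 102130 peaks in the 7 library lists and 3 of the 28982 peaks in the 3 final lists, and in the final lists the symbol and the exon overlap picked the same peaks.

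The series holds 18 samples, with 1 library of m6A-enriched RNA and 1 of input RNA from each culture, all labelled C57BL/6. Embryoid bodies (EBs, 3 enriched libraries) were aggregates of BVSC ESCs kept for 8 to 21 days in serum medium without adhesion. The same range is given for every EB replicate, so the day of each is unknown and may differ between them. Fibroblasts (MEFs, 2 enriched libraries) were grown from E13.5 embryos. Mettl3-knockout ESCs (1 enriched library, described as a negative control) lack the catalytic subunit of the m6A methyltransferase, and the labels do not say from which parent line or clone they came. The BVSC ESCs that served as the comparison (3 enriched libraries) were kept without serum in LIF with CHIR99021 and PD0325901, inhibitors of GSK3 and MEK, and the labels give 1 growth text for all samples. Peak lists of single libraries were analysed for EBs, the knockout and ESCs, and the MEFs enter through their final list alone.

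N6-methyladenosine (m6A) is the most abundant internal mark of mRNA, deposited mainly by the Mettl3 and Mettl14 complex at a short motif whose core is GGAC. It is known to be dense around stop codons and in long exons, and readers of the YTH family shorten the life of many marked transcripts. In ESCs the Nanog transcript is a well-known m6A target, and the protein holds a homeodomain that binds DNA and a tryptophan-rich stretch in its carboxy-terminal part through which it dimerizes. In m6A-seq the RNA is fragmented and fragments bound by the antibody are sequenced, so a peak marks a stretch enriched over input, not a base. A peak also needs the transcript to be expressed, and the lists hold positions with no score, read count or fold enrichment, so that the depth behind a peak is unknown and more transcript cannot be told apart from more methylation. In these bulk cultures fewer cells of a type and less RNA per cell cannot be told apart either.

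Nanog (ENSMUSG00000012396.12) lies on the plus strand of chromosome 6, from 122707489 to 122714633 in mm10. Its canonical transcript Nanog-201 (ENSMUST00000012540.4) has 4 exons and 2211 nt, with a 5′ UTR of 215 nt, a coding sequence of 918 nt including the stop codon, and a 3′ UTR of 1078 nt. All positions below that are given in nt count from the first base of this transcript with introns removed. The peaks of the 7 libraries fell into 4 separate sites, called here the start side, exon 2, exon 3 and the stop side. The stop-side site was occupied in 3 of 3 EB and 3 of 3 ESC libraries and not in the knockout. The start-side site was occupied in 2 of 3 EB libraries, in the knockout and in 3 of 3 ESC libraries. Exon 2 and exon 3 each had a peak in 2 of 3 EB libraries, and in 0 of 3 ESC libraries and 0 knockout libraries.

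**Figure D1:**
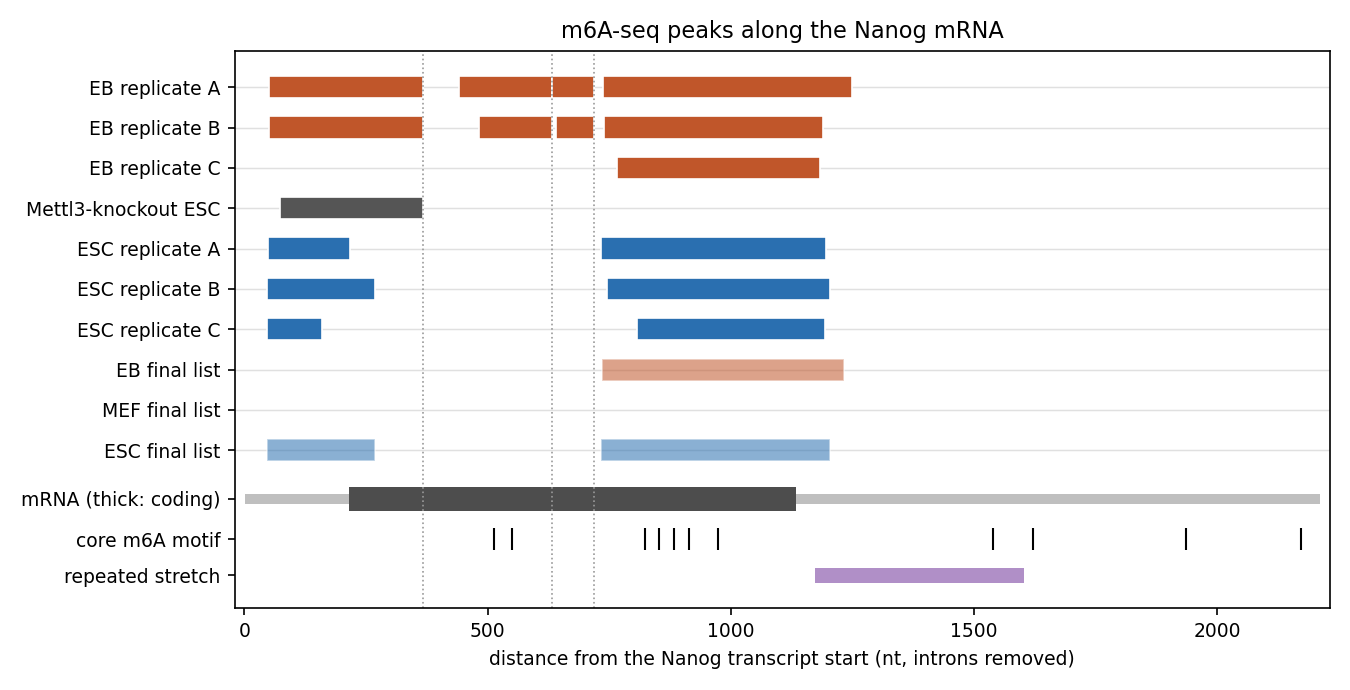
Peaks of Nanog in each list, drawn as bars along the mRNA (x axis: nt from the transcript start, introns removed; dotted lines: exon borders; ticks: places of the core motif; purple: the stretch found at 100 or more other places in the genome). The stop-side bars of the 6 EB and ESC libraries share nt 807 to 1183, the knockout bar ends with exon 1 at nt 366, and the MEF list has no bar.

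The stop-side site was the most constant feature of the transcript. Its peak covered nt 737 to 1249, 739 to 1189 and 766 to 1183 in EB replicates A, B and C. In ESC replicates A, B and C it covered nt 734 to 1196, 745 to 1204 and 807 to 1192. The first base thus varied over 73 bp and the last base over 66 bp among the 6 libraries, and all 6 peaks spanned the stop codon at nt 1131. Every one of these peaks had its centre in the coding part of exon 4, at -131 to -167 nt from the first base of the stop codon. They held 324 to 397 coding bases each, and 53 to 119 bp of each lay from the first base of the stop codon onward.

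The stretch shared by all 6 libraries (chr6:122713229-122713605, 377 bp) runs from codon 198 to the last codon, 305, and into the 3′ UTR. It holds 5 of the 11 GGAC motifs of the mRNA, sought on the transcript strand alone. This is 1.33 GGAC per 100 nt, against 0.327 per 100 nt in the rest of the mRNA. The first 4 stand exactly 30 nt apart, at nt 823, 853, 883 and 913, and each overlaps a TGG codon for tryptophan, at codons 203, 213, 223 and 233. They therefore mark the tandem repeat that encodes the tryptophan-rich stretch of the protein. The coding bases from the start of the shared stretch to just past the fifth motif (chr6:122713229-122713409, plus strand, nt 807 to 987) are shown because they carry the repeat and all 5 motifs, with GGAC in capitals. The stop codon with its surroundings (chr6:122713540-122713568, plus strand) follows, with the stop codon in capitals. Both were read from the GRCm38.p6 sequence of RefSeq.
Nanog stop-side repeat: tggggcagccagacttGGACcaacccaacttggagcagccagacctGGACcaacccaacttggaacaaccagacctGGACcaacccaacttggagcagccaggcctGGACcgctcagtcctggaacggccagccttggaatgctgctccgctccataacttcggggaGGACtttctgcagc
Nanog stop codon: accaggtgaaataTGAgacttacgcaaca

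A window with as many motifs was uncommon among mRNAs. Of 20070 protein-coding canonical transcripts long enough to hold the same 377 nt window around their stop codon, 80.96% had at least 1 GGAC in it and 5.19% had 5 or more. Among the 2555 with a peak within 200 nt of the stop codon in all 3 ESC libraries, 88.9% had at least 1 and 10.5% had 5 or more, with a median of 2. With the wider consensus DRACH, in which D stands for any base but C, R for a purine and H for any base but G, the shared stretch held 14 matches (3.71 per 100 nt) against 2.34 per 100 nt elsewhere in the mRNA. DRACH counts include the GGAC matches.

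The 3′ UTR beyond this site had no peak in any library. The last base under a peak was nt 1249, in EB replicate A, so 962 nt at the 3′ end of the mRNA were free of peaks in all 7 libraries, although 4 GGAC motifs lie in the 3′ UTR. A stretch of 429 nt that begins 43 nt after the first base of the stop codon (nt 1174 to 1602) matched 100 or more other places in the genome at 75% identity or more. The stop-side peaks ended 10 to 76 nt inside that stretch. It contains 1 of the 4 motifs. How reads that map to several places were treated is not stated in the labels, and its part in where the peaks end was not tested.

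Widths of the stop-side peak overlapped between the cell types. The peak was 513, 451 and 418 bp wide in EB replicates A, B and C. It was 463, 460 and 386 bp wide in ESC replicates A, B and C. The means were 461 ± 48.2 bp in EBs and 436 ± 43.6 bp in ESCs (SD, n = 3 each), a difference of 24.3 bp that was less than the spread between replicates (2-sided exact permutation p = 0.6, where 0.1 is the smallest possible). Within its own list each of these peaks was among the wider ones, with 85.8% to 89.6% of the peaks of the same EB library and 86.8% to 93.1% of those of the same ESC library being at most as wide. Measured as that percentile the difference changed sign, to -2.03 percentage points (exact permutation p = 0.4), and it was -1.83 bp without EB replicate A and -0.833 bp without ESC replicate C.

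**Figure D2:**
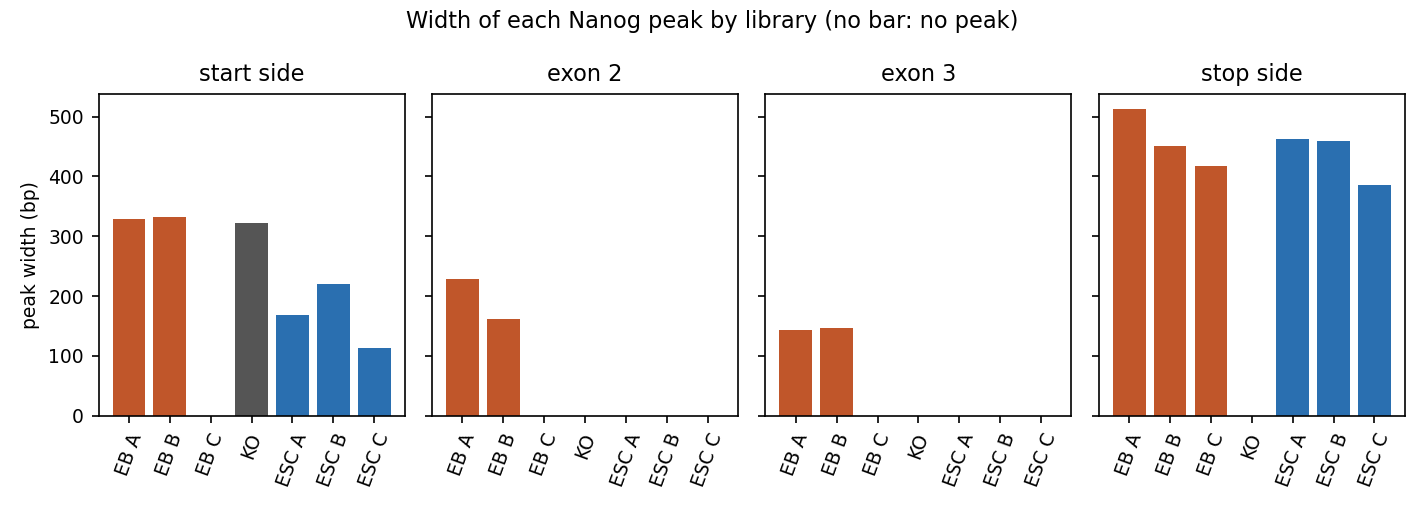
Width in bp of the Nanog peak at each of the 4 sites in EB replicates A, B and C, the Mettl3-knockout library (KO) and ESC replicates A, B and C; no bar means no peak. Stop-side widths of EBs (418 to 513 bp) and ESCs (386 to 463 bp) overlap, while the start-side peaks of EB replicates A and B and of the knockout (323 to 333 bp) are wider than those of ESCs (113 to 221 bp).

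At the start side the peak began within a narrow range and ended at different places. It covered nt 50 to 366 in EB replicates A and B, with 12 and 16 bp more in intron 1. In the knockout it covered nt 73 to 366, with 29 bp more in intron 1. In ESC replicates A, B and C it covered nt 48 to 216, 47 to 267 and 46 to 158. The ESC peaks therefore lay in the 5′ UTR or ended shortly after the start codon, with 1, 52 and 0 coding bases in replicates A, B and C. The peaks of EB replicates A and B and of the knockout held 151 coding bases each and ran through to the end of exon 1. EB replicate C had no peak there.

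The same difference was seen in width. The start-side peak was 329 and 333 bp wide in EB replicates A and B and absent in EB replicate C. It was 169, 221 and 113 bp wide in ESC replicates A, B and C. With the missing peak set to a width of 0, the means were 221 ± 191 bp in EBs and 168 ± 54.0 bp in ESCs (SD, n = 3 each, exact permutation p = 0.8). Over the libraries that had the peak, a choice made after seeing the data, EBs exceeded ESCs by 163 bp with no overlap (n = 2 and 3, exact permutation p = 0.1, the smallest that design allows). Of 554 mRNAs with a start peak in all 3 ESC libraries and in EB replicates A and B, 18.2% (101) had both EB peaks wider than every ESC peak. This order was thus not particular to Nanog, although most of these mRNAs did not have it.

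No GGAC lies in the 5′ UTR or in exon 1 of Nanog. The stretch under the start-side peaks of all 3 ESC libraries and the knockout (chr6:122707640-122707725, 86 bp, nt 73 to 158) holds 4 DRACH matches, and EB replicates A and B cover it as well. Of 21726 mRNAs, 35.3% had at least 1 GGAC at the same nt, 72.7% at least 1 DRACH and 6.03% 4 or more. A peak marks a stretch and not a base, so it does not show that any of these matches is methylated, and this was not tested. The windows that hold the 4 matches are shown because they lie under the peak that was listed with and without Mettl3, with DRACH in capitals (plus strand, chr6:122707644-122707672, chr6:122707667-122707695 and chr6:122707703-122707725, RefSeq GRCm38.p6).
Nanog start-side window 1: ctcacttccttcTGACTtcttgataattt
Nanog start-side window 2: taattttgcattAGACAttTAACTcttct
Nanog start-side window 3: atctttccttctAGACActgagt

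The annotated Nanog transcripts differ under the start-side peak, and the lists do not say from which of them a peak came. GENCODE's basic set has 3 of them, and bases 122707609 to 122707811 are exonic in Nanog-201 and intronic in Nanog-202 and Nanog-203, which start upstream and use a start codon at 122707858 in place of 122707783. Of the start-side peak, 59.3% and 58.6% in EB replicates A and B lay in this segment. In the knockout 53.3% lay in it. In ESC replicates A, B and C the shares were 100%, 89.6% and 100%. The ESC peaks of replicates A and C thus lay wholly in sequence that, of the 3 transcripts, is exonic in Nanog-201.

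In Mettl3-knockout ESCs, Nanog had its start-side peak and no other. The knockout peak (chr6:122707640-122707962) overlapped 85.2%, 88.2% and 76.1% of the bases of the start-side peak of ESC replicates A, B and C, and 93.0% and 93.1% of those of EB replicates A and B. It began 25, 26 and 27 bp after the peaks of ESC replicates A, B and C and ended 179, 128 and 237 bp after them. Against EB replicates A and B it began 23 bp later and ended 17 and 13 bp later, so its edges lay nearer to those of the EB peaks. At 323 bp it was the third widest of the 2043 knockout peaks, whose median width was 98 bp. Of 337 mRNAs with a start peak in every ESC library and in the knockout, the knockout peak was the widest for 2.97%, Nanog among them. The knockout is 1 library and no test between genotypes was possible. Its list is written in another format than the EB and ESC lists, and the labels do not say whether it was called with the same settings.

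Among mRNAs with a peak at the same place in all 3 ESC libraries, a start peak in the knockout was common and a stop peak rare. Of 5156 genes that every ESC library gave a peak, 19.9% also had a peak anywhere in the knockout. Of 639 mRNAs with a peak reaching the first 200 nt in all 3 ESC libraries, 52.7% had one there in the knockout. Of 2567 with a peak within 200 nt of the stop codon in all 3 ESC libraries, 0.117% (3 mRNAs) had one there in the knockout. Nanog had both kinds of peak, although the lists do not show that they come from the same transcript. This layout, with start and stop peaks in every ESC library and the start peak alone in the knockout, was found for 2.02% (97) of 4792 mRNAs with a peak in all 3 ESC libraries. The layout was taken from Nanog itself, and only the 639 mRNAs with a start peak in every ESC library could have it. The share among mRNAs with both ESC peaks was not computed, so 2.02% does not show that the knockout part is unusual. With windows of 100 and 400 nt in place of 200 nt the layout was found for 65 and 113 mRNAs, and Nanog had it each time.

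**Figure D3:**
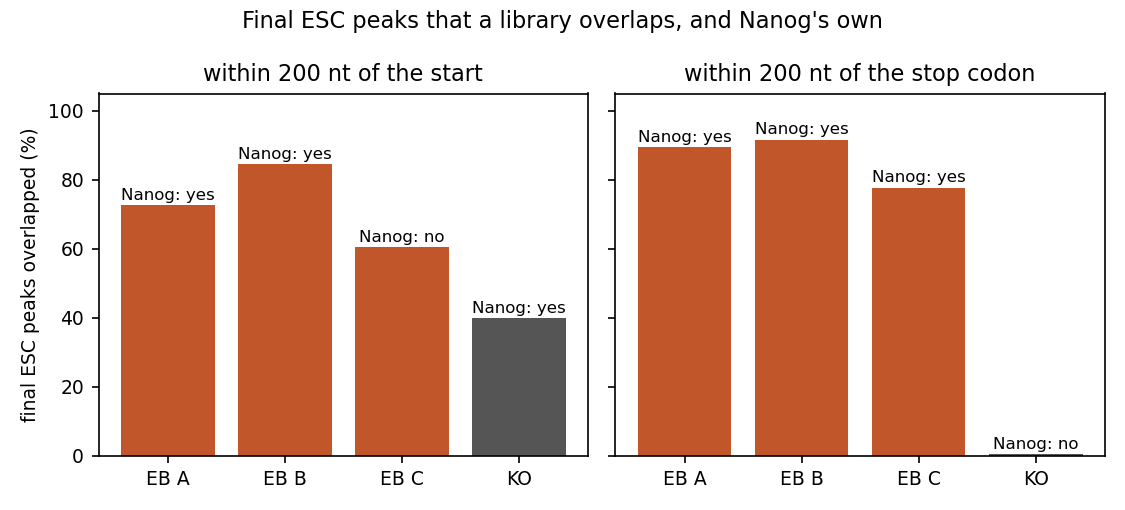
Share of the authors' final ESC peaks (y axis, %) within 200 nt of a transcript start (left, 1796 peaks) or stop codon (right, 3921 peaks) that each EB library and the Mettl3-knockout library (KO) overlap; text above a bar says whether that library had the Nanog peak of the same place. The knockout overlaps 39.9% at starts and 0.408% at stop codons.

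EB replicates A and B had Nanog peaks that no ESC library had. In exon 2, EB replicate A had a peak of 229 bp (chr6:122711613-122711841) and EB replicate B one of 161 bp (chr6:122711654-122711814). In exon 3, EB replicate A had a peak of 143 bp (chr6:122712627-122712769) and EB replicate B one of 147 bp (chr6:122712637-122712783). Exons 2 and 3 encode the homeodomain. The exon 2 peaks reached 38 and 11 bp into intron 2, and the exon 3 peaks had 56 and 68 bp outside the exon. These were of ordinary width, with 40.0% to 64.0% of the peaks of the same library being at most as wide.

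The exon 2 bases that the peaks of EB replicates A and B share (chr6:122711654-122711803, plus strand, nt 483 to 632) are shown because they hold the other 2 coding GGAC motifs, at nt 514 and 551, in capitals. The exon 3 bases they share (chr6:122712637-122712715, plus strand, nt 641 to 719) hold no GGAC and have DRACH in capitals.
Nanog exon 2 stretch: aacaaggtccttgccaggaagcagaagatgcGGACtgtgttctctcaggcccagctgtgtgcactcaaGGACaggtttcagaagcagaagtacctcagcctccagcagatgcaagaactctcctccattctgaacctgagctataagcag
Nanog exon 3 stretch: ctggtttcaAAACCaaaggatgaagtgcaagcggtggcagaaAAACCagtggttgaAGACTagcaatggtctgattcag

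All 7 coding GGAC motifs of Nanog thus lay under peaks of EB replicates A and B. EB replicate C and each of the 3 ESC libraries covered 5 of them, and the knockout covered 0. Of the 57 DRACH matches in the mRNA, EB replicates A, B and C covered 31, 28 and 14. The knockout covered 7. ESC replicates A, B and C covered 20, 20 and 18.

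Summed over sites, the Nanog bases under peaks differed more among the EB libraries than between the cell types. EB replicates A, B and C had 4, 4 and 1 peaks over 1108, 997 and 418 exonic bp. The knockout had 1 peak over 294 bp. Each ESC library had 2 peaks, over 632 bp in replicate A, 681 bp in B and 499 bp in C. EB replicates A and B were above every ESC library and EB replicate C was below all of them. The means were 841 ± 371 bp in EBs and 604 ± 94.2 bp in ESCs (SD, n = 3 each), and the difference of 237 bp was less than the spread between replicates (exact permutation p = 0.4). Without EB replicate C it was 448.5 bp (n = 2 and 3, exact permutation p = 0.1), and without EB replicate A 103.5 bp.

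**Figure D4:**
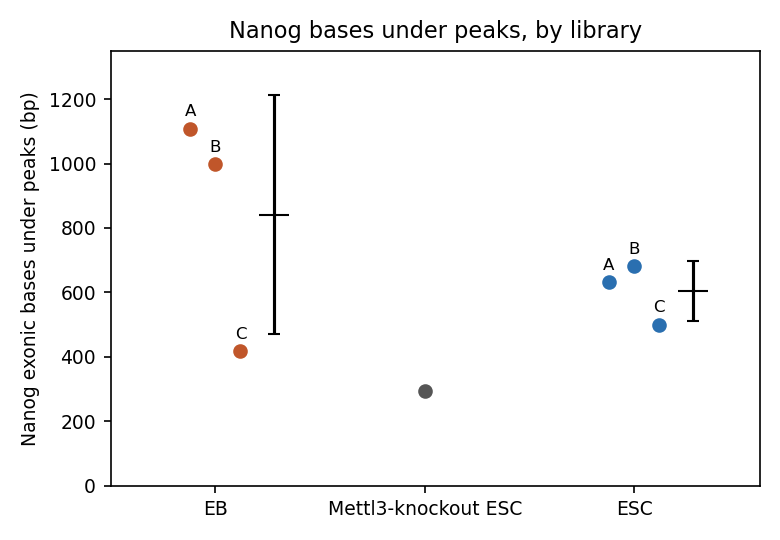
Exonic bases of Nanog under peaks (y axis, bp) in each EB, Mettl3-knockout and ESC library; letters name replicates and the bars beside EB and ESC give mean and SD (n = 3). EB replicates A (1108 bp) and B (997 bp) lie above the ESC libraries (499 to 681 bp) and EB replicate C (418 bp) below.

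The lists differ in length, and EB replicate C was the lowest EB library both in peak number and in Nanog bases under peaks. The other libraries did not follow list length in this way. EB replicate B had more peaks than A but fewer Nanog bases, and the shortest ESC list, of replicate A, did not have the fewest. EB replicates A, B and C listed 18185, 21509 and 12364 peaks, and ESC replicates A, B and C 10515, 19816 and 17698. EB replicate C, with no start, exon 2 or exon 3 peak on Nanog, had the EB list with the fewest peaks. ESC replicate A had its start-side and stop-side peaks in a list with fewer peaks still. In peak bases, however, the list of EB replicate C was the smaller, with 2907265 bp against 3052390 bp in ESC replicate A. Per Mb of all peak bases in the library, Nanog took 240 bp, 182 bp and 144 bp in EB replicates A, B and C and 207 bp, 160 bp and 133 bp in ESC replicates A, B and C (difference 21.9, exact permutation p = 0.6). The part of list length in the EB values was not tested.

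The order of the libraries in peak number was set against that of other genes. Of 4509 genes with a peak in all 6 libraries, 10.4% had more peaks in EB replicates A and B than in every ESC library, as Nanog did. With the further condition of fewer peaks in EB replicate C than in every ESC library, 0.554% (25 genes) remained, Nanog among them. That condition was taken from Nanog itself, and only genes with 2 or more peaks in every ESC library could meet it. Of the genes with a peak in ESC replicates A, B and C, 33.0%, 48.7% and 41.9% had 2 or more. The 0.554% therefore does not measure how unusual Nanog is. Of the 639 mRNAs with a start peak in all 3 ESC libraries, 72.5% had one in all 3 EB libraries, and 14.2% had one in EB replicates A and B and not in C, as Nanog did. The stop peak was present in all 3 EB libraries in 86.8% of the 2567 mRNAs that had it in all 3 ESC libraries, and 87.5% of the 5156 genes had any peak in every EB library. In each library Nanog was above the median gene in bases under peaks, exceeding 68.4% to 90.5% of the genes with a peak in EB libraries, 99.8% in the knockout and 77.4% to 83.4% in ESC libraries.

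The final lists of the 3 cell types were read for the same sites. The final EB list held 1 Nanog peak, on the stop side (chr6:122713157-122713653, 497 bp). The final MEF list held none, and 23.9% of the 4826 symbols in both other final lists were missing from it. The final ESC list held 2 Nanog peaks, on the start side (chr6:122707613-122707834, 222 bp) and the stop side (chr6:122713156-122713626, 471 bp). Read from these lists alone, the start-side peak would be present in ESCs and absent in EBs, but 2 of 3 EB libraries had it. EB replicate C, the library without it, overlapped 100% of the 8384 peaks in the final EB list, against 92.1% and 97.0% for EB replicates A and B. EB replicate C overlapped 60.5% of the 1796 final ESC peaks near starts and 77.7% of the 3921 near stop codons, against 72.7% and 84.5% at starts and 89.4% and 91.7% at stop codons for EB replicates A and B. MEFs are somatic cells in which Nanog is known to be silenced, and a missing peak there cannot be told apart from a missing transcript.

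Copies of Nanog elsewhere in the genome had no peak. A stretch of chromosome X around the pseudogene Nanog-ps1 matched nt 622 to 2209 in 2 pieces, at 97.4% identity each, and so contains near copies of the exon 3 and stop-side sites. Chromosome 12 held a copy of nt 1 to 789 at 80.2% identity, where Nanog-ps2 is annotated, and a copy of nt 239 to 649 at 75.2%. None of the 10 lists had a peak on any of them. Of the neighbours, the pseudogene Gm10224 upstream had no peak, and Slc2a3, which encodes a glucose transporter and lies 13175 bp downstream, had 1 peak in each of the EB and ESC libraries and 0 in the knockout. Dppa3, a maternal-effect gene of naive cells and the nearest protein-coding gene upstream, had 1 peak in the knockout, 1 in ESC replicate C and none in the other libraries.

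The genes nearest to Nanog in their bases under peaks over the 7 libraries (Euclidean distance of log2 of bp + 1, among 13307 other protein-coding genes) were Limk2 (distance 0.888), Mif4gd (0.889), Hnrnpm (1.14), Ipmk (1.17) and Carhsp1 (1.22). Limk2, a kinase of the actin regulator cofilin, had 1020, 1255 and 529 bp in EB replicates A, B and C, 198 bp in the knockout and 585, 906 and 430 bp in ESC replicates A, B and C. A knockout peak in each of the 5 was fixed by this choice, since the knockout bases enter the distance. In the final MEF list, which the choice did not use, all 5 had a peak and Nanog had none. All 5 also had peaks in the final EB and ESC lists. Of the 4826 symbols in both of these lists, 23.9% were missing from the MEF list, so most such genes were in it.

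The same readouts were taken for 20 genes that work with Nanog in naive pluripotency. Of these, 13 carried a peak in each of the 6 ESC and EB libraries, against 19.5% of all 21951 protein-coding genes. All genes of the list with a peak in every ESC library had one in every EB library, which 87.5% of all such genes did. A knockout peak was found for 5 of the 13, against 19.9% of all genes with peaks in every ESC library. Of all 20, 8 had a knockout peak (Esrrb, Klf2, Klf4, Tfcp2l1, Tbx3, Zfp42, Dppa3 and Gdf3), against 8.37% of all 21951 protein-coding genes. Klf2 and Klf4, Krüppel-like factors of the naive network, shared the layout of Nanog with start and stop peaks in ESCs and the start peak alone in the knockout. This is 2 of the 13 genes of the list with a peak in every ESC library, against 2.02% of all 4792 such mRNAs. Sox2, the partner of Pou5f1, had a stop peak in all 3 EB and all 3 ESC libraries and no knockout peak. Summed over all its peaks, Sox2 had 1178, 1292 and 1190 exonic bp in EB replicates A, B and C and 1040, 837 and 857 exonic bp in ESC replicates A, B and C. More peaks in EB replicates A and B than in every ESC library were seen for 2 of the 13, Klf5 and the nuclear receptor gene Nr5a2, against 10.4% of the 4509 genes that had peaks in these 6 libraries, a share that 2 of 13 is near. Pou5f1, which encodes Oct4, had 1 peak in EB replicate B and none in the other libraries. Fgf4, a growth factor of the inner cell mass, had 1 peak in each EB and ESC library.

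**Figure D5:**
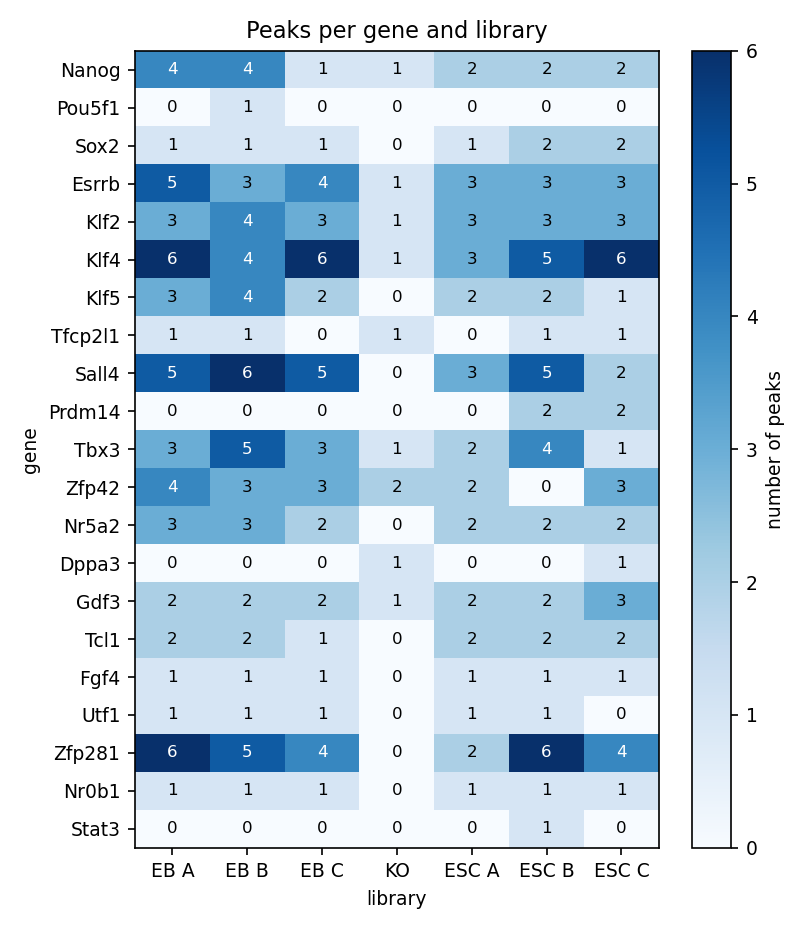
Number of peaks (colour and digits) on Nanog and 20 genes of the naive pluripotency network in EB replicates A, B and C, the Mettl3-knockout library (KO) and ESC replicates A, B and C. Nanog has 4, 4 and 1 peaks in EBs, 1 in the knockout and 2 in each ESC library.

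Markers of the labelled cell types were looked up in the same lists, where a peak needs both expression and enrichment. Any peak was found for 40.3%, 45.1% and 31.5% of the 21951 protein-coding genes in EB replicates A, B and C, 8.37% in the knockout and 25%, 44.1% and 39.2% in ESC replicates A, B and C. Of 10 markers of EB derivatives, 8, 9 and 6 had a peak in EB replicates A, B and C, 0 in the knockout and 3, 4 and 5 in ESC replicates A, B and C. The 0 of the knockout stands in a list that gives few genes a peak. These 10 were Gata4, Gata6, Sox17, Foxa2, Afp, Apob, T, Hand1, Cdh5 and Sox1. In the final EB list 6 of them had a peak, without Afp, T, Hand1 and Cdh5, and in the final ESC list 4. Any peak was found for 25.8% and 29.6% of protein-coding genes in these 2 final lists. Of 8 ESC markers, 6, 7 and 5 had a peak in EB replicates A, B and C, 4 in the knockout and 5, 5 and 6 in ESC replicates A, B and C, with Pou5f1 at 0 in every ESC library. The final ESC list and the final EB list each gave 5 of the 8 a peak, and Pou5f1, Tfcp2l1 and Dppa5a were missing from the ESC one. Of 8 fibroblast markers, Thy1 and Twist1 had a peak in the final MEF list, in which 24.7% of protein-coding genes had one. Col1a1, Col1a2, Col3a1, Fn1, Prrx1 and Vim had none there. The 2 of 8 in the MEF list is near the share of all protein-coding genes, so this count speaks neither for nor against the MEF label. Fibroblast markers with a peak numbered 4, 4 and 2 in EB replicates A, B and C, 0 in the knockout and 1, 4 and 1 in ESC replicates A, B and C.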

How the data were processed

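The deposited files give peak positions called by the authors, in 7 lists of single libraries and 3 final lists with gene symbols; they hold no count or signal. MACS 1.4.1, TopHat2 2.0.10 and CASAVA 1.8.2 with the mm10 build are named, per the submitters' processing notes, without roles or thresholds, and how replicates were joined in the final lists is not given there. EB and ESC library peaks carry MACS2 in their names, per the file rows, while the knockout list has no peak names, so that equal calling settings are not shown. Starts were read as counted from 0 and are printed from 1. No peak passed a chromosome end (0 peaks). Peaks were placed on the basic set of GENCODE M21, without regard to strand, with 1 canonical transcript a gene (APPRIS rank, then coding length). EBs and ESCs were compared by 2-sided exact permutation tests over libraries. Copies were sought with blastn 2.17.0 (E-value 1e-20, at least 75% identity, 200 nt or more for a copy). Sequences came from GRCm38.p6, the build of mm10. Python 3.11.15, NumPy 2.4.6, pysam 0.24.0 and matplotlib 3.10.9 were used, and the overlap code was tested on simulated data.

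The gene, the lists and the tests were chosen with earlier results of these data known. Named were Nanog, its pseudogenes and neighbours, the 5 nearest genes, 20 network genes and the cell type markers. Where nothing beyond the word biological says how replicates were made, p-values measure the spread between these libraries. The alternatives were other overlap rules, transcripts, windows, scales, motifs, pairing by letter and leaving out each library.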

Additional observations from a re-analysis of the deposited data

How the results depend on the processing

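Nanog peak numbers in the 7 libraries and the 3 ESC libraries that share the start-side peak with the knockout were the same when a peak needed 50% of its length in Nanog exons, the canonical transcript or 50% of the shorter peak. Left out one library at a time, the EB minus ESC difference ran from 103.5 to 448.5 bp for bases under peaks, from -1.83 to 45.7 bp for the stop-side width and from -3.17 to 163 bp for the start-side width, where the start-side difference was below 0 without EB replicate A (-1.17) or B. As a percentile within the library, the stop-side difference was -2.03 points. Paired by the replicate letter (replicate block, exact sign-flip test, smallest p 0.25), the differences were 237, 24.3 and 53 bp with p = 0.5, 0.5 and 0.75. Across 16052 genes, libraries of the same letter (A, B and C) correlated at -0.0171, 0.0774 and 0.0538 in their deviations from the group means. Libraries of different letters correlated at -0.0925 to 0.0381. The values for B and C were above that range and the value for A was within it. The letters were not taken as pairs in the main tests, and these small values do not settle whether they are. DRACH in place of GGAC gave 7 to 31 matches under the peaks of a library, against 0 to 7. No test could pass 0.05 with 3 libraries against 3, and the knockout and MEF values have no replicate. The number of reads is unknown, so a missing peak does not show a missing mark.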
